A study of Marchantia polymorpha with 12 samples.

Results

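A total of 99 of the 20574 gene IDs in the count table averaged at least 1000 CPM (the count of a gene over the total of its library, times 1000000) over the 12 libraries of this study of the liverwort Marchantia polymorpha, and these most abundant transcripts of the thallus are described here. All 99 passed the filter on low counts that left 13726 genes for testing, and the smallest count of any of them in any library was 7615. The groups, with 3 libraries each, were the wounded double mutant Mpfad3fad7, the mock-treated mutant, wounded Tak-1 and mock-treated Tak-1. Tak-1 is the male wild-type accession Takaragaike-1; the mutant carries lesions in a pair of fatty acid desaturase genes, is titled Mpfad3fad7 and is called Mpdes6fad5 in the growth protocol. Plants of both genotypes had been subcultured for 3 weeks on agar with 0.5 Gamborg's B5 medium, apical fragments without gemma cups were sampled (leaflets, in the tissue field), and tweezers served for wounding, 2 h before freezing. A replicate was a pool of 6 to 8 plants, described as an independent biological replicate, and the labels do not say whether the mutant is a single line.

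The thallus is the flat, photosynthetic, haploid plant body of a liverwort, and in such tissue a small number of genes with everyday functions (photosynthesis, translation, water transport, the cytoskeleton) usually supplies a large part of the messenger RNA. Fatty acid desaturases introduce double bonds into fatty acids, and the polyunsaturated products are precursors of jasmonate-type oxylipins, which in land plants mediate responses to wounding. The reference gene table gives a symbol to 15 of the 99 transcripts, which held 13.5% of their counts, and the other 84 are named here by ID only, with no role. Counts were not divided by gene length, so a CPM is a share of the reads and does not rank genes by molecules.

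Library totals ran from 19121900 to 30821817 counts, and 3 counts, the limit that a count of 0 allows, correspond to 0.0973 to 0.157 CPM. Levels in single libraries are given below as scaled CPM, for which the totals of the tested genes were multiplied by TMM factors (trimmed mean of M values, edgeR's correction for library composition). Of the genes that the mutant's names could refer to, MpFAD3 (Mp2g24510) stood at 235 to 255 and MpDES6 (Mp6g17330) at 42.7 to 106 scaled CPM in the 6 mutant libraries, against 205 to 237 and 30.4 to 84.7 in the 6 Tak-1 libraries, and neither was lower in the mutant in wounded or mock plants. MpFAD5 (Mp3g10660) and MpDES5 (Mp3g13250, also called MpFAD7) were not called lower in the mutant either, so these levels do not check the genotype labels. By edgeR, MpFAD5 was higher in mock mutant plants (log2 0.46, adjusted p = 0.0133) and MpDES5 in wounded mutant plants (log2 0.19, adjusted p = 0.0368). The wound response of MpFAD5 was log2 0.17 in Mpfad3fad7 and 0.66 in Tak-1, and the difference, -0.49, was called (edgeR adjusted p = 0.0422). Of the 5 antheridium and sperm markers found, MpPRM, MpLC7 and MpTUA5 averaged 0.00436, 0.00946 and 0.452 CPM over the 12 libraries and MpCEN1 averaged 60.5 CPM, while MpDUO1 averaged 3.07 CPM in wounded and 0.491 CPM in mock Mpfad3fad7 and 3.00 CPM in wounded and 0.408 CPM in mock Tak-1, and the list summed to 55.2 to 66.9 CPM. The small subunit of Rubisco (MpRBCS), the only green thallus marker found by symbol, averaged 176 CPM, and none of the markers examined was among the 99. Planned lists of photosystem and light harvesting genes and of glycolysis and one-carbon genes matched no tested gene by symbol. Such genes may therefore be among the 84 transcripts without a symbol. The summed gemma cup markers MpKAR and MpGCAM1 stood at 28.9 to 38.4 CPM in wounded and 50.8 to 73.2 CPM in mock Mpfad3fad7, and at 30.7 to 58.3 CPM in wounded and 63.3 to 106 CPM in mock Tak-1. Of the pair, MpKAR averaged 24.7 CPM in wounded and 52.0 CPM in mock Mpfad3fad7 and 19.0 CPM in wounded and 44.0 CPM in mock Tak-1, and MpGCAM1, which ran from 1.19 to 62.2 CPM over single libraries, averaged 8.15 CPM in wounded and 8.29 CPM in mock Mpfad3fad7 and 26.5 CPM in wounded and 36.5 CPM in mock Tak-1. The air pore marker MpNOP1 stood at 152 to 172 CPM in wounded and 92.7 to 104 CPM in mock Mpfad3fad7, and at 196 to 220 CPM in wounded and 98.6 to 104 CPM in mock Tak-1. The 4 oil body markers together stood at 94.5 to 115 CPM in wounded and 63.0 to 77.8 CPM in mock Mpfad3fad7, and at 167 to 181 CPM in wounded and 69.7 to 87.2 CPM in mock Tak-1. Most of that sum was MpC1HDZ, with means of 92.2 CPM in wounded and 46.4 CPM in mock Mpfad3fad7 and 160 CPM in wounded and 51.6 CPM in mock Tak-1. The means of the other 3 were lower in wounded plants of both genotypes, as for MpABCG1 with 8.39 CPM in wounded and 18.5 CPM in mock Mpfad3fad7 and 8.34 CPM in wounded and 19.0 CPM in mock Tak-1. MpRKD, the only gene found of the archegonium and egg list, stood at 115 to 130 CPM in wounded and 173 to 178 CPM in mock Mpfad3fad7. It stood at 121 to 137 CPM in wounded and 184 to 196 CPM in mock Tak-1, a male accession, so it does not mark eggs there. MpROP, the only gene found of the rhizoid list, stood at 146 to 157 CPM in wounded and 176 to 197 CPM in mock Mpfad3fad7. In Tak-1 it stood at 135 to 155 CPM in wounded and 188 to 194 CPM in mock plants. A single gene does not show the amount of rhizoids. The part that any differences in tissue have in the results below was not tested, and in these bulk samples fewer cells of a type and less RNA per cell cannot be told apart.

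The 99 transcripts took up a smaller part of the library after wounding in both genotypes. Their share of all counts was 18.4, 18.0 and 18.3% in the wounded Mpfad3fad7 libraries, against 21.7, 23.3 and 22.8% in the mock Mpfad3fad7 libraries. In Tak-1 it was 17.0, 17.1 and 16.1% in wounded plants, against 21.6, 20.8 and 21.8% in mock plants. Wounded and mock libraries did not overlap in either genotype, and the wounded mutant libraries lay above the wounded Tak-1 libraries, whereas the lowest mock mutant library lay below the highest mock Tak-1 library. The means were 18.2 ± 0.200% in wounded Mpfad3fad7, 22.6 ± 0.806% in mock Mpfad3fad7, 16.7 ± 0.578% in wounded Tak-1 and 21.4 ± 0.519% in mock Tak-1 (SD, n = 3 each). The 95% Wilson interval of a share was at most 0.0379 percentage points wide, which covers counting error only. No test was made of these shares, because the transcripts were chosen by level.

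**Figure D1:**
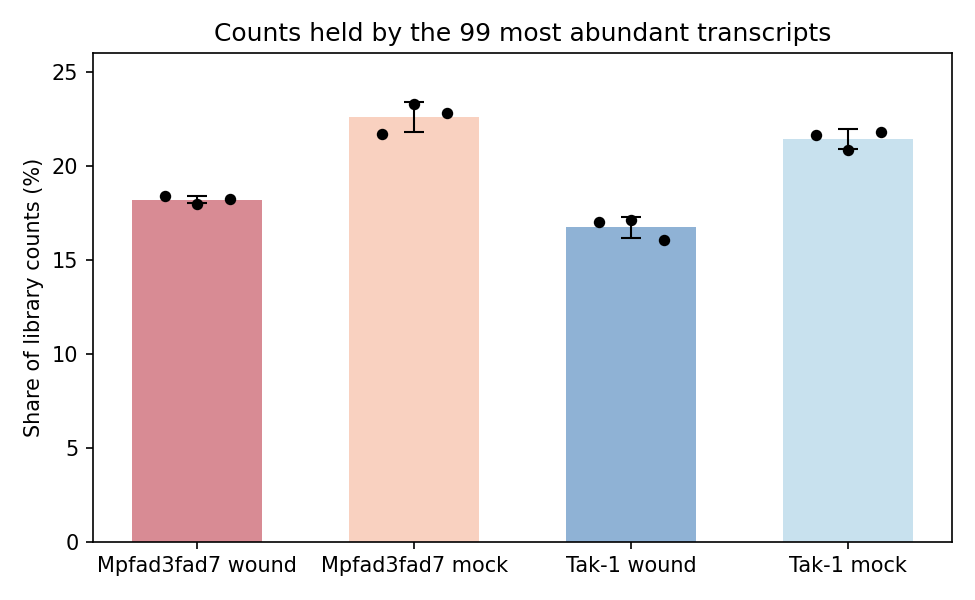
Share of all counts in a library (y axis, %) held by the 99 transcripts. Bars are means and error bars SD of 3 libraries, points are libraries; the wounded bars stand at 18.2 and 16.7% and the mock bars at 22.6 and 21.4%.

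The decrease was spread over many transcripts. In Mpfad3fad7 72 of them had a lower mean share in wounded than in mock plants, a sum of -5.44 percentage points, and 27 had a higher one, a sum of 1.06 points. In Tak-1 the sums were -5.76 points over 78 transcripts and 1.06 points over 21. The 10 transcripts with the largest losses made up 31.7% of the loss in Mpfad3fad7 and 28.8% in Tak-1. The 10 most abundant of the 99 held 4.59 ± 0.0486% of the counts in wounded and 5.46 ± 0.325% in mock Mpfad3fad7, and 4.20 ± 0.233% in wounded and 5.25 ± 0.0876% in mock Tak-1 (SD, n = 3 each).

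Most of these transcripts were abundant throughout. A group mean of at least 1000 CPM was reached in all 4 groups by 65, and 56 reached it in every one of the 12 libraries. A set of 10, with MpGRP7, Mp3g20970, Mp6g04110, Mp4g12520, Mp8g07830 and Mp4g20410 among them, reached it in the mock groups alone. In the wounded groups alone 8 reached it (MpPPO42, MpWRKY11, MpCE8.5, Mp4g02760, Mp4g02740, Mp4g23990, Mp8g03230 and Mp3g10710). A further 3 reached it in the mutant groups alone (Mp7g01940, MpRACK1 and Mp2g02760), and 13 showed other combinations. Transcripts that passed the threshold through 1 treatment or genotype had to differ there, so their calls below are read as descriptions of size. The last to pass were Mp4g20410, Mp2g02760 and Mp3g10710 at 1015, 1001 and 1000.2 CPM, and the first to miss were MpARFA2 (Mp3g13920), Mp4g17040 and Mp4g20310 at 974, 968 and 964 CPM.

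The threshold passed over genes whose mean reached the same level in some groups only. In wounded Tak-1 12 genes outside the 99 averaged at least 1000 CPM, and 7 of them carry a symbol, among them MpPPO22 (a polyphenol oxidase), MpLOX2 (a lipoxygenase) and MpCYP74N2 (of the oxylipin-forming P450 family). The corresponding counts were 10 genes in wounded Mpfad3fad7, 16 in mock Mpfad3fad7 and 13 in mock Tak-1. These 3 symbols were singled out after their values were seen.

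The most abundant transcript was Mp4g10850, first by group mean in all 4 groups and first in 9 of the 12 libraries. Its level, in scaled CPM, was 7305, 7430 and 7345 in wounded and 6354, 8436 and 7926 in mock Mpfad3fad7. In Tak-1 it was 6386, 6729 and 5339 in wounded and 6116, 5971 and 6633 in mock plants. The groups overlapped for wounding in both genotypes, and the gene was called in none of the 5 contrasts, like Mp2g07490, Mp4g06050, Mp7g09180 and Mp2g12010 of the 10 most abundant. Mp8g15740, the second by mean, had 4432, 4290 and 4690 scaled CPM in wounded and 6451, 7607 and 7377 in mock Mpfad3fad7, and 4626, 4285 and 3601 in wounded and 6263, 5550 and 6233 in mock Tak-1. Its groups did not overlap for wounding, and it fell by 0.68 ± 0.11 in Mpfad3fad7 (SE, adjusted p = 0.000147) and by 0.53 ± 0.11 in Tak-1 (adjusted p = 0.000919) on the log2 scale. Here and below, a gene was called where the adjusted p of edgeR's quasi-likelihood test was under 0.05 by the Benjamini-Hochberg method over the 13726 genes.

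Far more of the 99 transcripts fell than rose after wounding. In Mpfad3fad7 56 fell and 14 rose, which is 56.6 and 14.1% of the 99, beside 22.6% called lower and 28.6% called higher among all tested genes. In Tak-1 50 fell and 18 rose, 50.5 and 18.2% of the 99, beside 25.0% called lower and 30.0% called higher among all tested genes. The median log2 fold change was -0.31 in both genotypes, while the medians over all tested genes were 0.02 in Mpfad3fad7 and 0.01 in Tak-1. Among the 65 transcripts at 1000 CPM or more in all 4 groups, 39 fell and 4 rose in Mpfad3fad7, and 33 fell and 9 rose in Tak-1. Under upper-quartile scaling the split in Tak-1 moved to 69 lower and 12 higher, beside 40.1% lower and 22.7% higher among all tested genes. The median of all genes shifted to -0.19 there.

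The shares of calls differed by level, within the 99 and below them. Of the 33 most abundant, 22 fell and 0 rose in Mpfad3fad7, and 19 fell and 1 rose in Tak-1. Of the 33 least abundant, 13 fell and 9 rose in Mpfad3fad7, and 11 fell and 9 rose in Tak-1. Just below the threshold, among 431 genes at 300 to 1000 CPM, 31.1% were called lower and 31.3% higher in Mpfad3fad7, and 31.6% lower and 40.1% higher in Tak-1. Among the 1780 genes at 100 to 300 CPM, 31.0% were lower and 40.6% higher in Mpfad3fad7, and 31.2% lower and 41.6% higher in Tak-1.

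**Figure D2:**
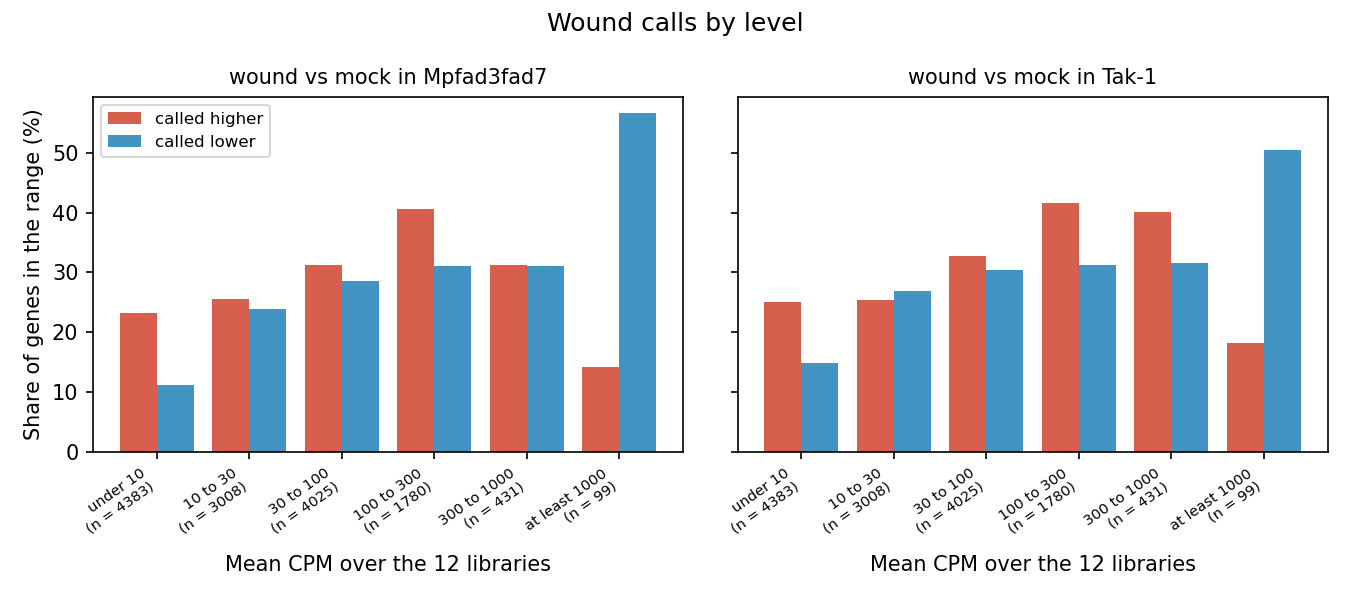
Share of tested genes (y axis, %) called higher (red) and lower (blue) in wounded than in mock plants, by mean CPM over the 12 libraries (x axis, low to high). In the highest range, with 99 genes, the lower calls reach 56.6% in Mpfad3fad7 and 50.5% in Tak-1, and the higher calls 14.1 and 18.2%.

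The wound responses of the genotypes ran in parallel across the 99. A total of 49 transcripts fell in both genotypes, 13 rose in both, none moved in opposite directions among those called in both, and 23 were called in neither. A further 7 were called lower in Mpfad3fad7 alone, 1 lower in Tak-1 alone (MpACT1), 1 higher in Mpfad3fad7 alone (Mp5g19710) and 5 higher in Tak-1 alone, and for none of these 14 was the difference between genotypes itself called. Across the 99 transcripts the wound responses of the genotypes, which share no library, had a Pearson r of 0.965 and a Spearman rho of 0.957, and 94 had the same sign. Across all 13726 tested genes r was 0.893 and rho 0.849. Genes are not independent replicates, and every response shares the scaling of its libraries.

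**Figure D3:**
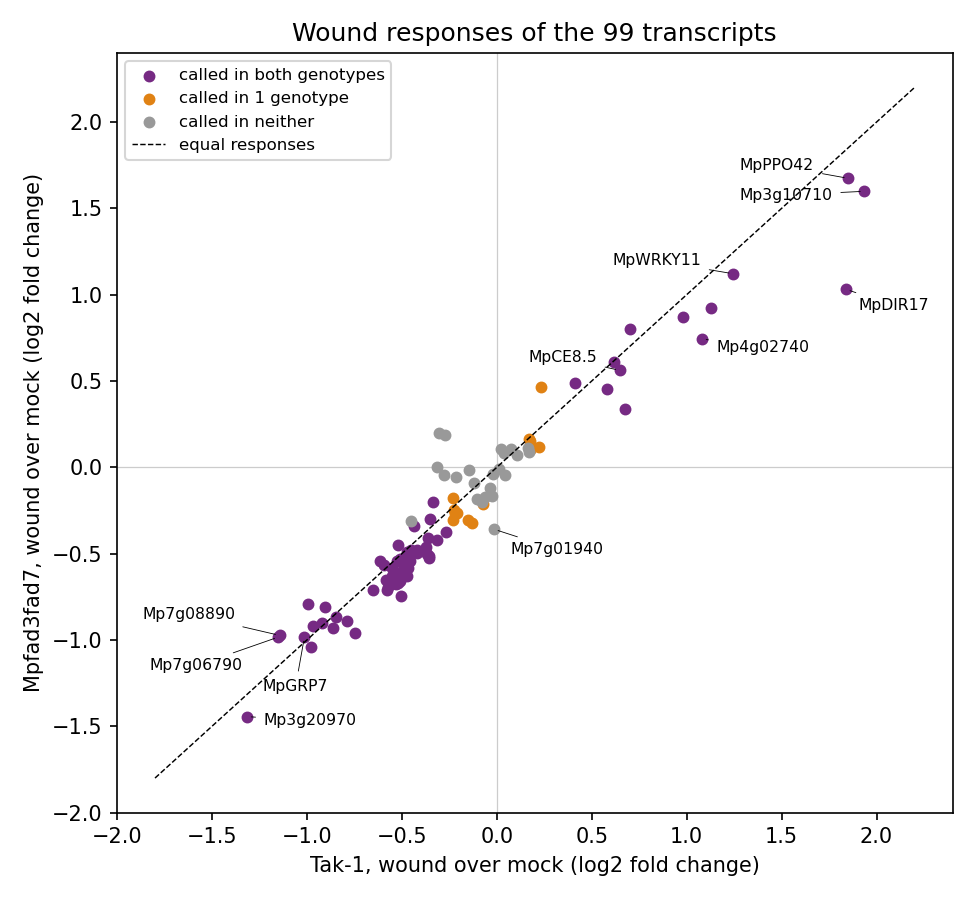
Log2 fold change of wounded over mock plants in Tak-1 (x axis) and in Mpfad3fad7 (y axis) for the 99 transcripts, coloured by calls; the dashed line marks equal responses. MpDIR17 lies farthest below the line, at 1.03 in Mpfad3fad7 and 1.84 in Tak-1.

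Among the transcripts that rose, MpPPO42 (Mp5g19980), named as a polyphenol oxidase, an enzyme class that oxidises phenols to quinones, gained 3.19-fold in Mpfad3fad7 and 3.61-fold in Tak-1. It stood at 1895, 1814 and 2101 scaled CPM in wounded and 639, 639 and 542 in mock Mpfad3fad7, and at 2629, 3002 and 2400 in wounded and 784, 687 and 755 in mock Tak-1. Wounded libraries lay above mock libraries without overlap, and the log2 changes were 1.67 ± 0.10 (SE, adjusted p = 3.25e-08) in Mpfad3fad7 and 1.85 ± 0.10 (adjusted p = 8.80e-09) in Tak-1. MpWRKY11 (Mp1g24950), named as a WRKY factor, a plant family of DNA-binding regulators, had 1612, 1534 and 1766 scaled CPM in wounded and 643, 829 and 786 in mock Mpfad3fad7, and 1949, 2289 and 1666 in wounded and 821, 809 and 862 in mock Tak-1. It rose in both genotypes, by 1.12 ± 0.12 (SE, adjusted p = 4.45e-06) in Mpfad3fad7 and 1.24 ± 0.12 (adjusted p = 1.37e-06) in Tak-1 on the log2 scale. A gene with no symbol, Mp3g10710, had 1428, 1313 and 1504 scaled CPM in wounded and 490, 464 and 447 in mock Mpfad3fad7, and 1669, 1927 and 1617 in wounded and 427, 477 and 458 in mock Tak-1. Its 1.94 ± 0.08 in Tak-1 (adjusted p = 1.17e-09) was the highest wound response of the 99 in that genotype.

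MpDIR17 (Mp7g06220), named as a dirigent protein, a family that steers the coupling of phenolic radicals, was the only one of the 99 whose wound response was called different between the genotypes. It stood at 975, 878 and 1120 scaled CPM in wounded and 427, 520 and 508 in mock Mpfad3fad7, and at 2112, 2496 and 2033 in wounded and 628, 586 and 641 in mock Tak-1. Every wounded Tak-1 library lay above every wounded mutant library. The response was 2.04-fold in Mpfad3fad7 (log2 1.03 ± 0.11, SE, adjusted p = 4.60e-06) and 3.58-fold in Tak-1 (log2 1.84 ± 0.11, adjusted p = 1.82e-08). The difference of the responses was -0.81 ± 0.15 on the log2 scale (SE, adjusted p = 0.0119), beside 2.59% of all tested genes called lower and 0.692% called higher in that contrast. Without both wounded mutant libraries that share a column header, its adjusted p was 0.0506. MpDIR17 reached a group mean of 1000 CPM in wounded Tak-1 alone and passed the level threshold through that group, so its call describes a transcript chosen through its high group. MpPPO42 and MpDIR17 are the members of the defence and secreted protein list, of whose 311 tested genes 81 rose and 44 fell in Mpfad3fad7, with a median of 0.03, and 81 rose and 80 fell in Tak-1, with a median of -0.19. Among all tested genes 28.6% rose and 22.6% fell in Mpfad3fad7, and 30.0% rose and 25.0% fell in Tak-1. Counting may have split or dropped reads that fit several polyphenol oxidase or dirigent genes, so the levels of MpPPO42 and MpDIR17 are uncertain.

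Smaller rises were seen for MpCE8.5 (Mp2g19430), named in the carbohydrate esterase family of pectin methylesterases, with 1350, 1365 and 1375 scaled CPM in wounded and 944, 982 and 845 in mock Mpfad3fad7, and 1311, 1377 and 1308 in wounded and 899, 771 and 880 in mock Tak-1. It rose 1.48-fold in Mpfad3fad7 (adjusted p = 3.68e-05) and 1.57-fold in Tak-1 (adjusted p = 8.72e-06). Mp2g19940 rose by 0.87 ± 0.09 in Mpfad3fad7 and 0.98 ± 0.09 in Tak-1 on the log2 scale (SE, adjusted p = 3.92e-06 and 1.09e-06). The 13 transcripts that rose in both genotypes ranged from 0.34 to 1.67 in Mpfad3fad7 and from 0.41 to 1.94 in Tak-1.

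**Figure D4:**
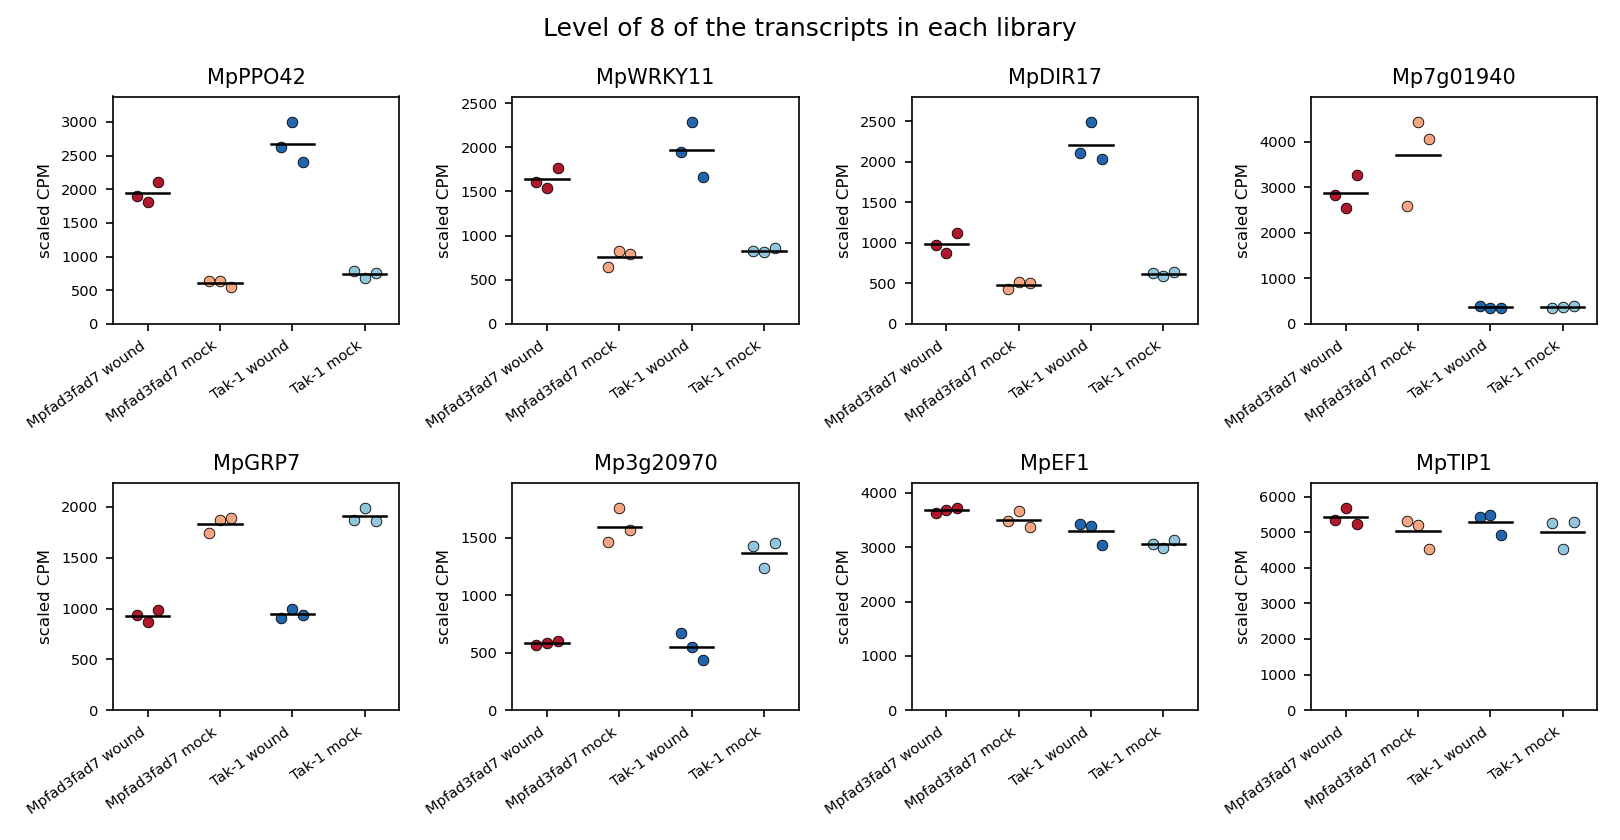
Scaled CPM (y axis, from 0) of 8 of the transcripts in each library, by group; points are libraries and bars are means of 3. MpPPO42, MpWRKY11 and MpDIR17 are high in wounded plants, MpGRP7 and Mp3g20970 in mock plants, Mp7g01940 in Mpfad3fad7, and MpEF1 and MpTIP1 are called in none of the contrasts.

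Among the transcripts that fell, MpGRP7 (Mp1g18780), which shares its name with a glycine-rich RNA-binding protein of Arabidopsis, was at 0.506 of its mock level in Mpfad3fad7 and 0.495 in Tak-1. It stood at 939, 863 and 982 scaled CPM in wounded and 1748, 1874 and 1887 in mock Mpfad3fad7, and at 908, 993 and 935 in wounded and 1870, 1989 and 1865 in mock Tak-1. The log2 changes were -0.98 ± 0.07 (SE, adjusted p = 1.25e-07) in Mpfad3fad7 and -1.01 ± 0.07 (adjusted p = 6.81e-08) in Tak-1. Mp3g20970 fell most, with 565, 589 and 604 scaled CPM in wounded and 1460, 1759 and 1565 in mock Mpfad3fad7, and 670, 546 and 438 in wounded and 1427, 1234 and 1453 in mock Tak-1. Its changes were -1.44 ± 0.13 (SE, adjusted p = 1.14e-06) in Mpfad3fad7 and -1.31 ± 0.13 (adjusted p = 2.05e-06) in Tak-1.

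The largest losses of reads came from more abundant genes without a symbol. Mp8g15740, with levels given above, and Mp7g08890 were among the 3 largest losses in both genotypes. Mp3g03990 was among the 3 in Mpfad3fad7 and Mp7g06790 in Tak-1. Mp7g08890 had 1867, 1903 and 2063 scaled CPM in wounded and 3476, 4113 and 3864 in mock Mpfad3fad7, and 1958, 1829 and 1577 in wounded and 4182, 3764 and 3910 in mock Tak-1. It fell to 0.509 of the mock level in Mpfad3fad7 and to 0.452 in Tak-1 (adjusted p = 2.45e-06 and 4.37e-07), without overlap. Mp7g06790 fell by 0.98 ± 0.09 in Mpfad3fad7 and 1.15 ± 0.09 in Tak-1 on the log2 scale (SE, adjusted p = 1.35e-06 and 2.44e-07). Mp3g03990 changed by -0.93 in Mpfad3fad7 and by -0.86 in Tak-1. Mp6g04110, named for its fold change and not for its loss of reads, changed by -1.04 in Mpfad3fad7 and by -0.98 in Tak-1. It reached a group mean of 1000 CPM in the mock groups alone, so its fall is read as a description of size. Of the 10 most abundant transcripts, Mp4g15070 and Mp6g15300 fell in both genotypes, by 0.50 and 0.56 in Mpfad3fad7 and by 0.37 and 0.50 in Tak-1, and Mp4g15080 was called lower in Mpfad3fad7 (-0.33, adjusted p = 0.0280) and not in Tak-1 (-0.13, adjusted p = 0.353), where it was called under each other scaling (-0.35 to -0.27, adjusted p = 0.00967 to 0.0366) and without wounded library 1 (-0.28, adjusted p = 0.0190). The difference of its responses was not called (-0.20, adjusted p = 0.628), and its call in Mpfad3fad7 was lost without mock library 2 or any wounded library of the mutant (adjusted p = 0.0512 to 0.0849). The 49 transcripts that fell in both genotypes ranged from -1.44 to -0.20 in Mpfad3fad7 and from -1.31 to -0.27 in Tak-1.

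MpTIP1 (Mp1g20890), named as a water channel of the vacuolar membrane, had 5341, 5678 and 5220 scaled CPM in wounded and 5322, 5211 and 4529 in mock Mpfad3fad7, and 5427, 5481 and 4923 in wounded and 5245, 4534 and 5272 in mock Tak-1. The groups overlapped, and its log2 changes with wounding were 0.11 ± 0.09 in Mpfad3fad7 and 0.07 ± 0.09 in Tak-1 (SE, adjusted p = 0.359 and 0.536). MpPIP2 (Mp4g17210), named as a water channel of the plasma membrane, changed by -0.21 ± 0.07 in Mpfad3fad7 (SE, adjusted p = 0.0207) and -0.07 ± 0.07 in Tak-1 (adjusted p = 0.400). The call was lost without mock library 1 or wounded library 1 or A of the mutant (adjusted p = 0.0580 to 0.0696). Of the 7 tested genes on the list of water channels and pumps, 1 rose and 2 fell in each genotype, with medians of -0.21 in Mpfad3fad7 and -0.07 in Tak-1. Beside them, 28.6% of all tested genes rose and 22.6% fell in Mpfad3fad7, and 30.0% rose and 25.0% fell in Tak-1.

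MpEF1 (Mp3g23400), named as a translation elongation factor, was the only tested gene of the translation list found by symbol. It had 3630, 3684 and 3723 scaled CPM in wounded and 3480, 3661 and 3382 in mock Mpfad3fad7, and 3437, 3396 and 3047 in wounded and 3070, 2987 and 3126 in mock Tak-1. Its log2 changes with wounding were 0.07 ± 0.07 and 0.11 ± 0.07 (SE, adjusted p = 0.450 in Mpfad3fad7 and 0.234 in Tak-1), and the signs for MpEF1, MpTIP1 and MpRACK1 turned under other scalings of the libraries, without a wound call under those scalings. MpEF1 was not called between genotypes, but it was called higher in the mutant in wounded plants under each other scaling and with DESeq2 (adjusted p = 0.0184 to 0.0455), and in mock plants with DESeq2 (adjusted p = 0.0143). MpRACK1 (Mp3g15630), named as a scaffold protein of the ribosome, changed by 0.11 in Mpfad3fad7 and 0.16 in Tak-1 (adjusted p = 0.194 and 0.0581), and it was called higher in Tak-1 by DESeq2 (adjusted p = 0.0456) and without Tak-1 wounded library 2 (adjusted p = 0.0485). Neighbouring genes named as actins differed little between groups: MpACT1 (Mp6g10990) changed by -0.18 in Mpfad3fad7 (adjusted p = 0.0717) and -0.23 in Tak-1 (adjusted p = 0.0217), and MpACTIN7 (Mp6g11010) by -0.12 and -0.04 (adjusted p = 0.178 and 0.691), with reads of such similar genes hard to assign. MpACT1 was no longer called without Tak-1 mock library 1 or wounded library 2 (adjusted p = 0.0703 and 0.0694), it was called lower in Mpfad3fad7 too under upper-quartile scaling (-0.31, adjusted p = 0.00522), and MpACTIN7 was called lower in both genotypes under upper-quartile scaling (adjusted p = 0.0121 in Mpfad3fad7 and 0.0204 in Tak-1). Their list of cytoskeleton, ubiquitin and histone genes held 30 tested genes. Besides MpACT1, MpACTIN7, MpACT2, MpTUB2, MpTUB4 and MpTUA5 all were named as histones, and no ubiquitin gene was found by symbol. Of the 30, 2 rose and 16 fell in Mpfad3fad7 (median -0.38) and 2 rose and 17 fell in Tak-1 (median -0.39). Among all tested genes 28.6% rose and 22.6% fell in Mpfad3fad7, and 30.0% rose and 25.0% fell in Tak-1. The counts of this list thus describe mostly histone genes.

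MpFBA2 (Mp6g07690), named as a fructose-bisphosphate aldolase, an enzyme of sugar metabolism, had 2359, 2407 and 2257 scaled CPM in wounded and 2665, 3109 and 2705 in mock Mpfad3fad7, and 2262, 2114 and 1817 in wounded and 2411, 2301 and 2499 in mock Tak-1. It fell by 0.27 ± 0.09 in Mpfad3fad7 (SE, adjusted p = 0.0240), and its change in Tak-1 was -0.22 ± 0.09 (adjusted p = 0.0569). The change of MpCAT2 (Mp4g06600) was -0.25 in Mpfad3fad7 (adjusted p = 0.0401) and -0.22 in Tak-1 (adjusted p = 0.0573). The call of MpFBA2 was lost without mutant mock library 2 or mutant wounded library 1 or B (adjusted p = 0.0581 to 0.108), and that of MpCAT2 when Tak-1 mock library 1 or 3, mock mutant library 2 or 3 or any wounded mutant library was left out (adjusted p = 0.0531 to 0.132). With upper-quartile scaling both genes, and MpPIP2, were called lower in Tak-1 too (adjusted p = 0.000904 for MpFBA2, 0.000766 for MpCAT2 and 0.00356 for MpPIP2). The carbon fixation and photorespiration list held 9 tested genes, which were MpRBCS and genes with FBA or CAT symbols. Of the 9, 1 rose and 4 fell in Mpfad3fad7 (median -0.05) and 1 rose and 3 fell in Tak-1 (median -0.22). The shares over all tested genes were 28.6% higher and 22.6% lower in Mpfad3fad7, and 30.0% higher and 25.0% lower in Tak-1. MpAVP3 (Mp4g18110), named as a proton-pumping pyrophosphatase, and MpGH16.42 (Mp8g18980), named in a family of cell wall glycoside hydrolases, were called in no contrast, with wound changes of -0.04 and -0.09 in Mpfad3fad7 and 0.04 and -0.12 in Tak-1. MpGH16.42 was called lower under upper-quartile scaling (-0.23 in Mpfad3fad7 and -0.32 in Tak-1, adjusted p = 0.00838 and 0.000843) and with totals of the other genes (-0.21 and -0.34, adjusted p = 0.0144 and 0.000443), and in Tak-1 with library totals (-0.26, adjusted p = 0.00361). MpAVP3 was called lower in wounded Mpfad3fad7 under upper-quartile scaling (-0.18, adjusted p = 0.0437) and higher in mock mutant than mock Tak-1 plants with DESeq2 (0.22, adjusted p = 0.0155). MpAVP3, MpGH16.42, MpCE8.5 and MpRACK1 were named after their values were seen, because they carry a symbol.

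In all, 21 of the 99 were called in none of the 5 contrasts. For 10 of these the log2 fold changes of wounding and of genotype were all within 0.2 of 0, and MpTIP1, MpEF1, MpACTIN7, MpGH16.42 and MpRACK1 were among them. A missed threshold does not show that a level was the same.

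**Figure D5:**
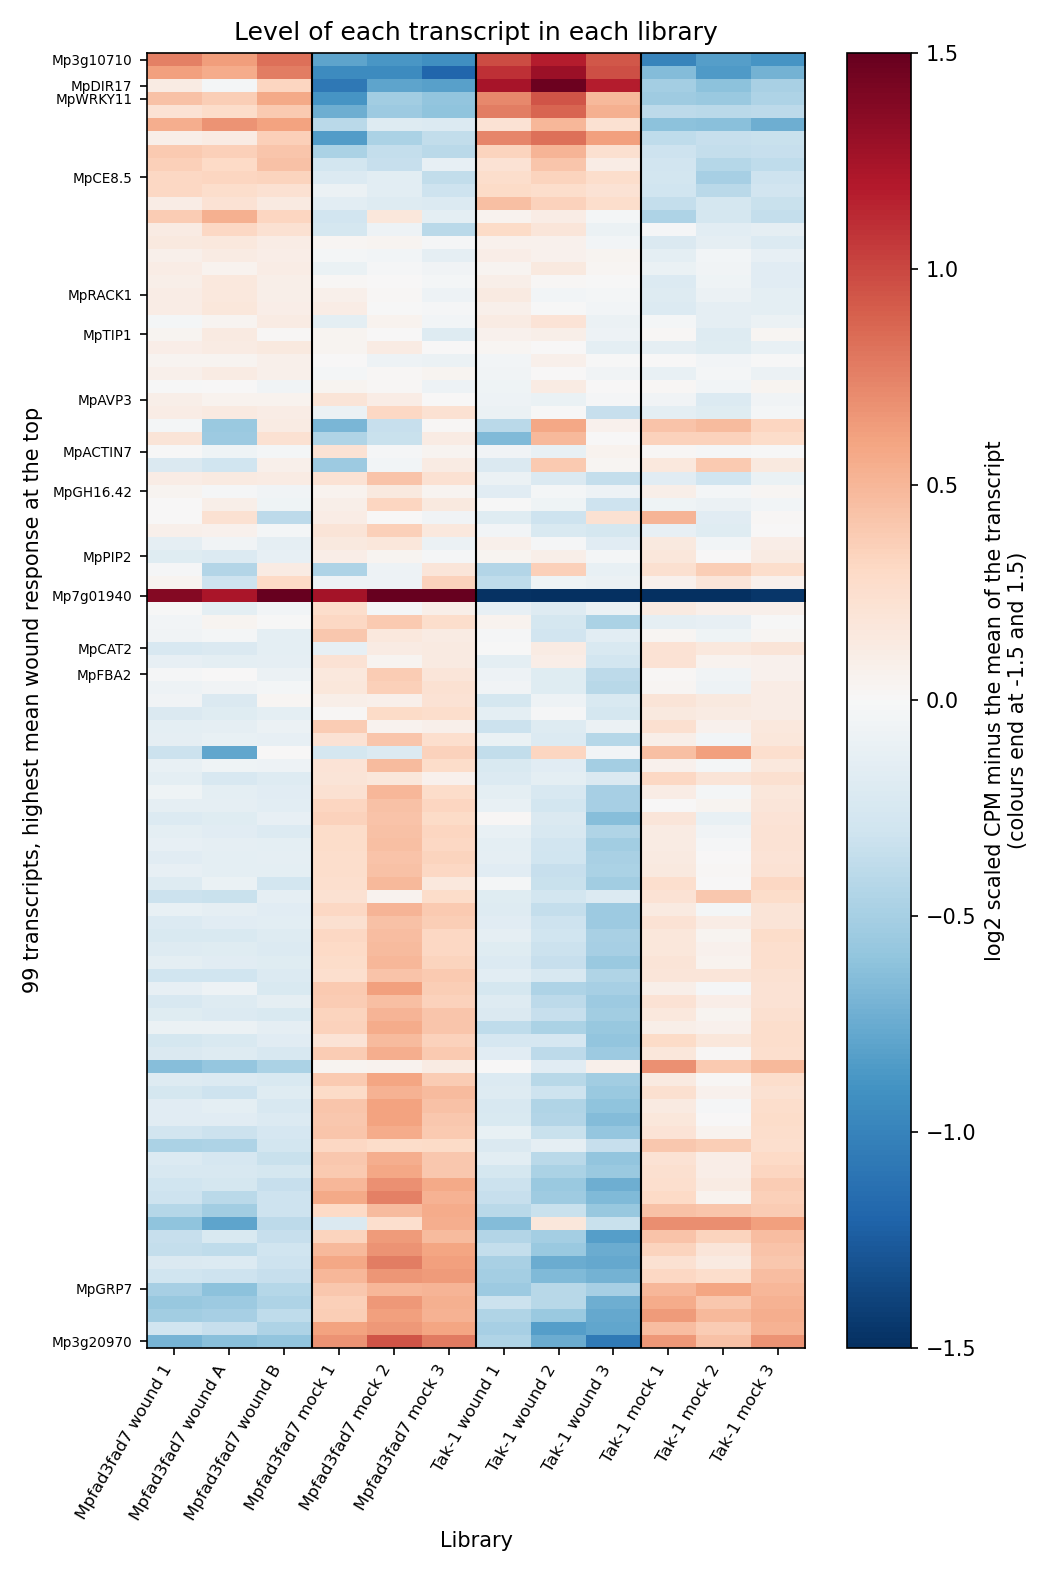
Log2 scaled CPM of each of the 99 transcripts (rows, highest mean wound response at the top) minus its mean over the 12 libraries (columns); colours saturate at the ends of the scale drawn. Most rows are blue in wounded and red in mock columns, the top rows show the reverse, and Mp7g01940 divides the genotypes.

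Fewer of the 99 were called between the genotypes than with wounding, as among all tested genes. In wounded plants 7 were called higher and 6 lower in Mpfad3fad7 than in Tak-1, which is 7.07 and 6.06% of the 99. Beside them stood 5.03% called higher and 9.51% called lower among all tested genes. In mock plants 5 were higher and 1 was lower, 5.05 and 1.01% of the 99, beside 2.00% called higher and 2.51% called lower. Estimates above 0 were seen for 73 of the 99 in wounded plants, with a median of 0.10, and for 73 in mock plants, with a median of 0.15, while the medians over all genes were 0.00 in each. Across the 99 the genotype differences in wounded and mock plants, which share no library, had a Pearson r of 0.912, which was 0.752 without Mp7g01940. The counts of higher calls moved with the setting, and so did the shares over all tested genes. Library totals alone gave 19 higher in wounded and 4 in mock plants, beside 8.84 and 1.28% of all tested genes. DESeq2 gave 12 in wounded and 23 in mock plants, beside 6.15 and 3.89%. Leaving out wounded library 1 or A of the mutant or wounded Tak-1 library 3 gave 3 higher in wounded plants. Beside them stood 2.47, 3.15 and 3.58% of all tested genes, in that order. Leaving out wounded Tak-1 library 1 gave 13, beside 4.53%. In mock plants library 2 of either genotype left 1 higher when it was removed, and wounded Tak-1 library 1 left 11. The shares over all tested genes were 0.323% without mock Tak-1 library 2, 0.315% without mock mutant library 2 and 2.27% without wounded Tak-1 library 1.

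Mp7g01940 was by far the largest genotype difference. It had 2843, 2544 and 3273 scaled CPM in wounded and 2592, 4442 and 4072 in mock Mpfad3fad7, against 392, 358 and 358 in wounded and 358, 364 and 398 in mock Tak-1. No mutant library came near a Tak-1 library, and the level was 7.81-fold higher in Mpfad3fad7 in wounded plants (log2 2.97 ± 0.17, SE, adjusted p = 1.58e-06) and 9.92-fold higher in mock plants (log2 3.31 ± 0.17, adjusted p = 1.01e-06). Wounding was not called for it in either genotype, with changes of -0.36 (adjusted p = 0.0786) in Mpfad3fad7 and -0.01 (adjusted p = 0.948) in Tak-1. It was called lower in wounded Mpfad3fad7 under each other scaling and with DESeq2 (-0.50 to -0.38, adjusted p = 0.0157 to 0.0426), and without mutant mock library 1 (-0.56, adjusted p = 0.000555). It passed the level threshold through the mutant libraries, so a genotype difference in it followed from the choice. As the labels do not say whether the mutant is a single line, a difference between lines and an effect of the desaturase lesions cannot be told apart.

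Mp3g19350 was lower in Mpfad3fad7 under both treatments. It had 844, 877 and 942 scaled CPM in wounded Mpfad3fad7 and 1315, 1166 and 1379 in wounded Tak-1, a difference of -0.54 ± 0.09 (SE, adjusted p = 0.00144). In mock plants it had 1345, 1358 and 1425 in Mpfad3fad7 and 2111, 1716 and 1827 in Tak-1, a difference of -0.45 ± 0.09 (adjusted p = 0.0176), which was lost without Tak-1 mock library 1 (adjusted p = 0.0631) or Mpfad3fad7 mock library 2 (adjusted p = 0.0734). It fell with wounding in both genotypes, by 0.63 in Mpfad3fad7 and 0.55 in Tak-1.

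In wounded plants the 6 transcripts lower in Mpfad3fad7 were MpDIR17 (-1.16 ± 0.11, SE, adjusted p = 2.48e-05), Mp3g19350, MpPPO42 (-0.47, adjusted p = 0.00732), Mp4g02740 (-0.53, adjusted p = 0.00693), Mp4g02760 (-0.43, adjusted p = 0.00558) and Mp3g10710 (-0.30, adjusted p = 0.0281). All of these except Mp3g19350 were among the 13 that rose with wounding in both genotypes. MpPPO42, Mp4g02740, Mp4g02760 and Mp3g10710 passed the level threshold through the wounded groups, and MpDIR17 through wounded Tak-1. Their rise, and in part their genotype calls, thus followed from the choice and describe size only. The differences of these transcripts in mock plants were not called, at -0.35 for MpDIR17, -0.29 for MpPPO42, -0.19 for Mp4g02740, -0.23 for Mp4g02760 and 0.04 for Mp3g10710. MpDIR17 was called lower in mock plants too with library totals, totals of the other genes and DESeq2 (adjusted p = 0.0304 to 0.0481), and MpPPO42 with library totals (adjusted p = 0.0451). For MpPPO42 the difference of the wound responses was -0.18 (adjusted p = 0.621), so that a smaller response in the mutant was not shown. The call of Mp3g10710 was lost without Tak-1 wounded library 2 or mutant wounded library 1 or A (adjusted p = 0.0845 to 0.114), and that of MpPPO42 without both mutant libraries that share a header (adjusted p = 0.0972). Mp4g02760 was named after its values were seen.

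The calls higher in Mpfad3fad7 in wounded plants, besides Mp7g01940, were small. Mp7g08940 was higher by 0.42 ± 0.09 in wounded (SE, adjusted p = 0.0102) and 0.40 ± 0.09 in mock plants (adjusted p = 0.0355), and Mp1g03870 by 0.34 in wounded (adjusted p = 0.0174) and 0.48 in mock plants (adjusted p = 0.0114). Mp2g15250 was higher by 0.37 (adjusted p = 0.00778), Mp5g03550 by 0.37 (adjusted p = 0.0397) and Mp7g06790 by 0.33 (adjusted p = 0.0281) in wounded plants. Mp2g19940 was higher by 0.39 in mock plants (adjusted p = 0.0322), and its difference in wounded plants, 0.29, missed the threshold (adjusted p = 0.0508) but was called under each other scaling and with DESeq2 (adjusted p = 0.00856 to 0.0134). Mp8g07830 was higher by 0.30 in wounded plants (adjusted p = 0.0166) and Mp6g01650 by 0.36 in mock plants (adjusted p = 0.0441); this pair was named after the values were seen.

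Several of these small genotype calls were lost when a single library was left out. Mp1g03870 was no longer called in wounded plants without Tak-1 wounded library 3 or mutant wounded library 1 or A (adjusted p = 0.0542 to 0.0606), nor in mock plants without library 2 of either genotype (adjusted p = 0.0507 and 0.0537). Mp7g06790 lost its call without Tak-1 wounded library 2 or 3 or mutant wounded library 1 or A (adjusted p = 0.0834 to 0.122). Mp5g03550 lost it without any of the 6 wounded libraries or Tak-1 mock library 3 (adjusted p = 0.0514 to 0.142). In mock plants Mp2g19940 lost it when any mock Tak-1 library, or library 2 or 3 of the mock mutant, was left out (adjusted p = 0.0854 to 0.124). Mp7g08940 lost it there when mock Tak-1 library 1 or 2, library 2 or 3 of the mock mutant or any wounded mutant library was left out (adjusted p = 0.0512 to 0.145).

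Levels of the 99 varied less between replicates than those of all tested genes in 3 of the 4 groups. The median coefficient of variation (SD over mean of scaled CPM) was 3.30% in wounded and 7.27% in mock Mpfad3fad7, and 11.0% in wounded and 5.58% in mock Tak-1, beside 7.96, 9.17, 10.2 and 7.51% over all tested genes in the same order. The 99 were chosen by level, while 4383 of the tested genes averaged under 10 CPM, and genes of like level were not compared. In wounded Tak-1 library 3 the 99 stood at a median of -0.13 and in library 1 at 0.09 on the log2 scale from the group mean. The 3 wounded mutant libraries lay within 0.01 of theirs.

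A small set of transcripts varied widely between libraries of the same group. A coefficient of variation over 15% in at least 2 groups was found for 8 of the 99: Mp2g07490, Mp2g07510, Mp2g12010, Mp2g12020, Mp2g12030, Mp3g10650, Mp4g12520 and MpVg01240. Mp2g12010, the seventh most abundant transcript, had 4107, 2859 and 4569 scaled CPM in wounded and 2609, 3287 and 4229 in mock Mpfad3fad7, and 3155, 6284 and 4390 in wounded and 5658, 5832 and 5240 in mock Tak-1. The neighbouring Mp2g12020 had 2907, 1739 and 2974 in wounded and 1855, 2011 and 2764 in mock Mpfad3fad7, and 1604, 3568 and 2555 in wounded and 3221, 3230 and 3087 in mock Tak-1. Library A was lowest of the wounded mutant libraries for both, library 1 lowest and library 2 highest of the wounded Tak-1 libraries. Over the 12 libraries the log2 deviations from the group means correlated with those of Mp2g12010 at r = 0.973 for Mp2g12020, 0.988 for Mp2g12030, 0.957 for Mp4g12520, 0.935 for Mp2g07510, 0.901 for Mp2g07490 and 0.855 for Mp3g10650, given as a description of genes chosen after their values were seen. MpVg01240, on the V chromosome by its ID, did not follow them (r = -0.413). Transcripts outside the 8 also reached such values, with 0.897 for Mp6g19610 and 0.881 for MpGRP7, so the correlation was not particular to this set. Others stood far below 0, with -0.882 for Mp1g04570 and -0.837 for MpRACK1. Mp6g19610 and Mp1g04570 were named after their values were seen. Of the 8, Mp4g12520 alone was called in a contrast, falling by 0.81 ± 0.20 in Mpfad3fad7 (SE, adjusted p = 0.00485) and 0.90 ± 0.20 in Tak-1 (adjusted p = 0.00217). Mp4g12520 reached a group mean of 1000 CPM in the mock groups alone, so its fall is read as a description of size.

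By ID the 99 lay on all 8 autosomes and the V chromosome, with 20 on chromosome 4, 19 on chromosome 2 and 14 on chromosome 1. Of the gene pairs, 5 were next to each other and 15 had no more than 5 genes between them in the gene order of assembly MpTak2_v7.1. Of the 15, 8 had the same wound calls in both genotypes, where no call in either genotype also counted as the same. That was so for Mp1g04190 with Mp1g04200, Mp2g07490 with Mp2g07510, and Mp2g12020 with each of Mp2g12010 and Mp2g12030. The share of matching calls among other gene pairs was not computed, so the count does not show that neighbours moved together. Mp2g12010, Mp2g12020 and Mp2g12030 formed an unbroken run. Near one another on chromosome 4, Mp4g02740 and Mp4g02760 rose, by 0.74 and 0.92 in Mpfad3fad7 and 1.08 and 1.13 in Tak-1, while Mp4g02720 fell, by 0.75 in Mpfad3fad7 and 0.51 in Tak-1. Mp1g04190, Mp1g04200, Mp4g02720, Mp5g19710 and the 8 transcripts with a high coefficient of variation were named after their values were seen.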

How the data were processed

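RNA was sequenced from 12 libraries, and the authors deposited raw read counts per gene ID, with 1 column per library. Trim Galore, HISAT2, HTSeq and edgeR are named without versions or roles, per the submitters' processing notes; no genome build, annotation or strand setting was found in the sources used here. Because 2 wounded mutant columns carry 1 header, they count as libraries of that group without a number, called A and B. Every column of values was used.

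CPM and library shares were computed from unscaled counts. After filterByExpr by group and TMM scaling, edgeR 4.0.16 (R 4.3.3) fitted its quasi-likelihood model to the 12 libraries together, each group having its own mean, with 8 residual degrees of freedom and a common dispersion of 0.121 as a coefficient of variation; the code was tested on simulated data. The 5 contrasts were two-sided, and calls were made at 0.05 after Benjamini-Hochberg adjustment. Adjusted p-values are those of edgeR unless DESeq2 (1.42.0) is named. An SE is the absolute log2 fold change over the square root of the F statistic. Upper-quartile scaling, library totals, totals of the other genes, no low-count filter, DESeq2, fits to 2 groups, a replicate block and leaving out libraries were tried as alternatives.

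IDs were matched to locus tags of assembly MpTak2_v7.1 for names and gene order; 98 of the 99 matched, all but MpVg01240. Named are the 10 most abundant transcripts, the 4 highest and 4 lowest called per contrast, those with a symbol on a gene list (at most 4 per list), the 3 on either side of the threshold and the 3 with the largest gain and loss of CPM per wound contrast; exceptions are marked. Sequence features were not used here. The transcripts, gene lists and naming rule were chosen with earlier results of these data known.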

Additional observations from a re-analysis of the deposited data

Results flagged for a closer look

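By edgeR, MpDIR17 (Mp7g06220) was the 1 transcript of the 99 whose wound response differed between the genotypes by the test of the difference itself. Over all tested genes 2.59% were called lower and 0.692% higher in that contrast. With DESeq2 3 of the 99 were called lower, beside 4.32% of all tested genes. The difference for MpDIR17, Mpfad3fad7 minus Tak-1, was -0.81 ± 0.15 on the log2 scale (SE, edgeR adjusted p = 0.0119), with all 3 wounded mutant libraries below all 3 wounded Tak-1 libraries. MpDIR17 passed the level threshold through the wounded Tak-1 libraries, so the call describes a transcript chosen through its high group. Its reads may be shared with similar dirigent genes, and the part of such sharing was not tested. The groups have 3 libraries each, too few for a check of single libraries standing apart within a group.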

How the results depend on the processing

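The wound counts stayed within 1.5 times their values under every alternative run: 12 to 16 higher and 41 to 65 lower in Mpfad3fad7, 12 to 20 higher and 43 to 70 lower in Tak-1. Over all tested genes, main fit included, the shares ran from 19.4 to 28.6% higher and 13.4 to 33.5% lower in Mpfad3fad7. In Tak-1 they ran from 22.1 to 30.4% higher and 20.3 to 41.8% lower. With matched gene IDs only, the mean shares were 18.19 and 22.60% in wounded and mock Mpfad3fad7, and 16.70 and 21.41% in wounded and mock Tak-1. Scaled CPM chose the same 99 transcripts, so the shares were the same. Leaving out 1 of 3 libraries cannot move a group mean by 1 SD, so it is no check of the shares. In wounded plants the 7 transcripts higher in Mpfad3fad7 became 13 under upper-quartile scaling, 19 with library totals, 28 with totals of the other genes, 12 with DESeq2 and 1 without both mutant libraries that share a header, with a range of 3 to 13 when single libraries were left out. The shares over all tested genes were 9.20, 8.84, 11.6, 6.15 and 1.76% in the same order, beside 5.03% as reported. They ran from 2.47 to 5.77% with single libraries left out. The 6 lower became 3 without that pair (5 to 8 with single libraries left out). Over all tested genes 4.40% were lower without that pair (5.85 to 10.7% with single libraries left out), beside 9.51% as reported. In mock plants the 5 higher became 8 under upper-quartile scaling, 2 without that pair, 2 in a fit to the 2 groups and 23 with DESeq2, with 1 to 11 when single libraries were left out. The shares over all tested genes were 2.08, 0.759, 0.639 and 3.89% in the same order, beside 2.00% as reported. They ran from 0.315 to 2.27% with single libraries left out. The 1 lower became 4 with library totals, 2 with totals of the other genes, 2 with DESeq2 and 0 in a fit to the 2 groups (0 to 1 with single libraries left out). The shares over all tested genes were 3.45, 2.91, 3.73 and 0.978% in the same order (0.674 to 2.99% with single libraries left out), beside 2.51% as reported. The 1 lower difference of wound responses became 0 without that pair and 3 with DESeq2 (1 to 2 with single libraries left out), and the 0 higher differences, with 0 at an unadjusted p under 0.05, stayed at 0 with edgeR and DESeq2. Over all tested genes 2.59% were lower as reported, 1.58% without that pair and 4.32% with DESeq2 (1.59 to 2.73% with single libraries left out). The higher differences were 0.692% as reported and 1.51% with DESeq2. The cause of these moves was not tested. Of 3840 recomputed values of named transcripts, 3518 kept direction and side of the threshold, 81 lost and 108 gained a call, and 133 turned direction, 130 of them uncalled both as reported and recomputed. Upper-quartile scaling shifted the median wound response of all genes to -0.12 in Mpfad3fad7 and -0.19 in Tak-1, and totals of the other genes to -0.09 and -0.21. Same-numbered libraries did not deviate together (correlations of -0.14, -0.07 and -0.13 for wounded and mock Tak-1, and -0.11, -0.17 and 0.12 for the mock genotypes), so the numbers were not taken to pair them. With the replicate number as a block, 13 rose and 43 fell in Tak-1, beside 27.2 and 21.0% of all tested genes. The mock genotypes gave 1 higher and 0 lower, beside 0.162 and 0.293%. The smallest count of any of the 99 in a library was 7615.

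Of the log2 changes that turned direction, 3 were called when recomputed, as marked here. With totals of the other genes, the wound responses in Tak-1 were -0.15 for MpTIP1, -0.18 for Mp2g02760 (called), -0.11 for MpEF1, -0.18 for MpAVP3 (called) and -0.054 for MpRACK1. Under upper-quartile scaling those in Tak-1 were -0.12 for MpTIP1, -0.15 for Mp2g02760 (called), -0.089 for MpEF1, -0.15 for MpAVP3 and -0.029 for MpRACK1. Library totals gave -0.062 for MpTIP1, -0.095 for Mp2g02760, -0.030 for MpEF1 and -0.091 for MpAVP3 there. In Mpfad3fad7 the wound responses of MpTIP1, Mp2g02760, MpEF1 and MpRACK1 were -0.028, -0.057, -0.068 and -0.026 under upper-quartile scaling. With totals of the other genes they were -0.0067, -0.036, -0.047 and -0.0043.

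Genotype differences in wounded plants turned for Mp6g04110 and MpGRP7, to 0.015 and 0.029 under upper-quartile scaling, 0.012 and 0.024 with library totals and 0.037 and 0.050 with totals of the other genes. MpGRP7 was at 0.0086 without both mutant libraries that share a header. In mock plants MpTIP1 was at -0.0011 under upper-quartile scaling, -0.045 with library totals, -0.025 with totals of the other genes and -0.00099 both in a fit to the 2 groups and with the replicate block. Library totals also gave -0.025 for Mp6g04110, -0.0056 for Mp3g10710 and -0.024 for MpACT1 in mock plants, and totals of the other genes -0.0027 for Mp6g04110 and -0.0039 for MpACT1.

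Differences of the wound responses turned under upper-quartile scaling to 0.039 for Mp4g10850, 0.0070 for MpFBA2, 0.035 for MpCAT2, 0.021 for MpEF1 and 0.0037 for MpRACK1. With library totals and totals of the other genes they were 0.083 and 0.086 for Mp4g10850, 0.039 and 0.043 for Mp6g15300, 0.037 and 0.040 for Mp6g04110, and 0.011 and 0.017 for Mp3g19350. The same settings gave 0.035 and 0.039 for Mp3g03990, 0.050 and 0.053 for MpFBA2, 0.078 and 0.081 for MpCAT2, and 0.063 and 0.067 for MpEF1. They gave 0.0093 and 0.015 for MpACTIN7, 0.0099 and 0.016 for MpAVP3, 0.012 and 0.017 for MpCE8.5, and 0.045 and 0.050 for MpRACK1.

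With single libraries left out, wound responses in Mpfad3fad7 that turned ran from -0.15 to 0.043 for Mp4g10850 and from -0.19 to 0.13 for Mp2g07490. In Tak-1 they ran from -0.091 to 0.071 for Mp4g10850, -0.015 to 0.12 for MpTIP1, -0.12 to 0.023 for Mp4g06050, -0.061 to 0.032 for Mp7g01940, -0.10 to 0.038 for Mp1g03870 and -0.028 to 0.065 for MpAVP3. The genotype differences in wounded plants ran from -0.010 to 0.065 for MpTIP1, -0.47 to 0.028 for Mp2g12010, -0.053 to 0.25 for Mp3g20970, -0.15 to 0.045 for Mp6g04110, -0.068 to 0.024 for MpGRP7 and -0.032 to 0.050 for MpACTIN7. Those in mock plants ran from -0.060 to 0.070 for MpTIP1, -0.046 to 0.10 for Mp6g04110, -0.0017 to 0.084 for Mp3g10710, -0.11 to 0.014 for Mp7g08890 and -0.061 to 0.086 for MpACT1. The differences of wound responses ran from -0.13 to 0.065 for Mp4g10850, -0.040 to 0.31 for Mp2g07490, -0.033 to 0.10 for MpTIP1, -0.14 to 0.019 for Mp6g15300 and -0.27 to 0.035 for Mp3g20970. They ran from -0.18 to 0.021 for Mp6g04110, -0.013 to 0.079 for MpGRP7, -0.23 to 0.00012 for MpWRKY11, -0.056 to 0.11 for Mp7g08940, -0.015 to 0.22 for Mp5g03550 and -0.16 to 0.041 for Mp3g03990. They ran further from -0.14 to 0.022 for MpFBA2, -0.12 to 0.059 for MpCAT2, -0.011 to 0.14 for MpACT1, -0.0090 to 0.063 for MpGH16.42 and -0.091 to 0.0088 for MpRACK1.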
